A study of Mus musculus with 9 samples.

Results

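The forkhead factor genes Foxc1, Foxc2, Foxd1, Foxf1, Foxf2, Foxp1, Foxp2, Foxo1, Foxo3 and Foxk1 were followed through 3 chromatin maps of cultured mouse periosteal stem/progenitor cells, which line bone and form new bone. The regions are the peaks whose deposited gene name is 1 of these 10 genes, together with the KLF4 consensus sites that overlap those peaks or lie within 10 kb of them. This gave 51 of 40844 regions, of which 25 were among 16251 H3K4me3 peaks, 8 among 3463 PLAGL1 peaks and 18 among 21130 KLF4 sites. CUT&Tag releases DNA fragments beside a protein or histone mark by means of an antibody-guided transposase. It was run on cells from the mandibular angle of mice aged 8 weeks, after 3 days in medium with 50 µg/ml ascorbic acid, 5 mM β-glycerophosphate and 1e-07 M dexamethasone. The H3K4me3 library (n = 1), the HA-tagged PLAGL1 library (n = 1) and its IgG control (n = 1) came from Plagl1fl/fl cells, the last 2 after lentiviral overexpression of Plagl1-HA. FLAG-tagged KLF4, also supplied by lentivirus, was mapped in Plagl1fl/fl control cells (n = 3) and in Ctsk-iCre;Plagl1fl/fl cells (n = 3), where a Cre recombinase under the Ctsk gene deletes Plagl1. Both factors were therefore overexpressed and tagged, and nothing in the labels ties the replicates to different animals.

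Forkhead factors bind DNA through a shared winged-helix domain. FOXC and FOXF proteins pattern mesenchyme in the embryo, and FOXC1 and FOXC2 are needed for the formation of skull and skeletal elements. FOXO proteins are held in the cytoplasm when AKT phosphorylates them and, when nuclear, switch on genes of stress resistance and cell cycle arrest, while FOXP and FOXK proteins act mainly as repressors. H3K4me3 is a histone mark of promoters that are active or poised, PLAGL1 is an imprinted zinc-finger factor, and KLF4, of the Krüppel-like family, binds GC-rich and CACCC-type elements.

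The identity of the cells was looked at through the promoter mark. A mark at the transcription start site (TSS) means an H3K4me3 peak at most 3 kb away. It was present at 10 of 10 periosteal and skeletal progenitor markers, Prrx1, Pdgfra, Postn, Ctsk and Runx2 among them. Their scores ran from 210 at Cd200 to 1609 at Itgav, with a median of 659.5. Macrophage markers were marked at 6 of 6, with scores from 137 at Ptprc to 276 at Tyrobp and a median of 229. The ranges overlapped, with Prrx1 at 273. A mark was also present at 2 of 5 endothelial markers (Flt1 736, Kdr 179) and 0 of 5 skeletal muscle markers. A peak score is the authors' own value for a peak and is compared here only within its list. Forkhead genes are also used by macrophages and endothelial cells, and the part of such cells in the marks below was not tested. Sequencing depth is unknown for all libraries.

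All 10 forkhead genes carried an H3K4me3 peak within 3 kb of a TSS, as did 51.3% of protein-coding genes. The 10 genes were chosen with earlier results of these data known, so this count does not describe the family. Of 33 further forkhead genes 14 had such a peak. The strongest of these peaks had a score of 1436 at Foxk1, 997 at Foxp1, 856 at Foxo1, 584 at Foxc1, 548 at Foxo3, 459 at Foxc2, 329 at Foxf2, 311 at Foxp2, 310 at Foxf1 and 76 at Foxd1. Their median was 503.5, against 831 for the strongest TSS peak of all genes that have one, and 7 of the 10 lay below 831. With 1 library there is no replicate error, so neighbours in this order, such as Foxp2 and Foxf1, cannot be ranked.

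The same peaks were wide. The strongest TSS peak spanned at least 2000 bp at 9 of the 10 genes, against 13.9% of all genes with a TSS peak, a width chosen after the values were seen. The median width was 2377.5 bp for the forkhead genes and 1315 bp for all genes with a TSS peak. Foxo3 had the widest, at 3986 bp, which was wider than 99.9% of all H3K4me3 peaks, and Foxd1 had the narrowest, at 596 bp. A width of at least 2000 bp with a score below 617, the median of all H3K4me3 peaks, was found at 6 of the 10 genes (Foxc1, Foxc2, Foxf1, Foxf2, Foxo3 and Foxp2) and at 3.37% of all genes with a TSS peak. Foxd1 was low in both score and width, and Foxk1 had the highest score with a width of 2071 bp. Such widths were not particular to forkhead genes. Among the progenitor markers, Prrx1 (4006 bp), Pdgfra (3877 bp), Runx2 (2953 bp), Pdgfrb (2727 bp), Twist1 (2693 bp) and Postn (2531 bp) also reached 2000 bp. Itgav, Thy1, Ctsk and Cd200 did not. Prrx1 (score 273) and Postn (score 466) were also wide with a score below 617.

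**Figure D1:**
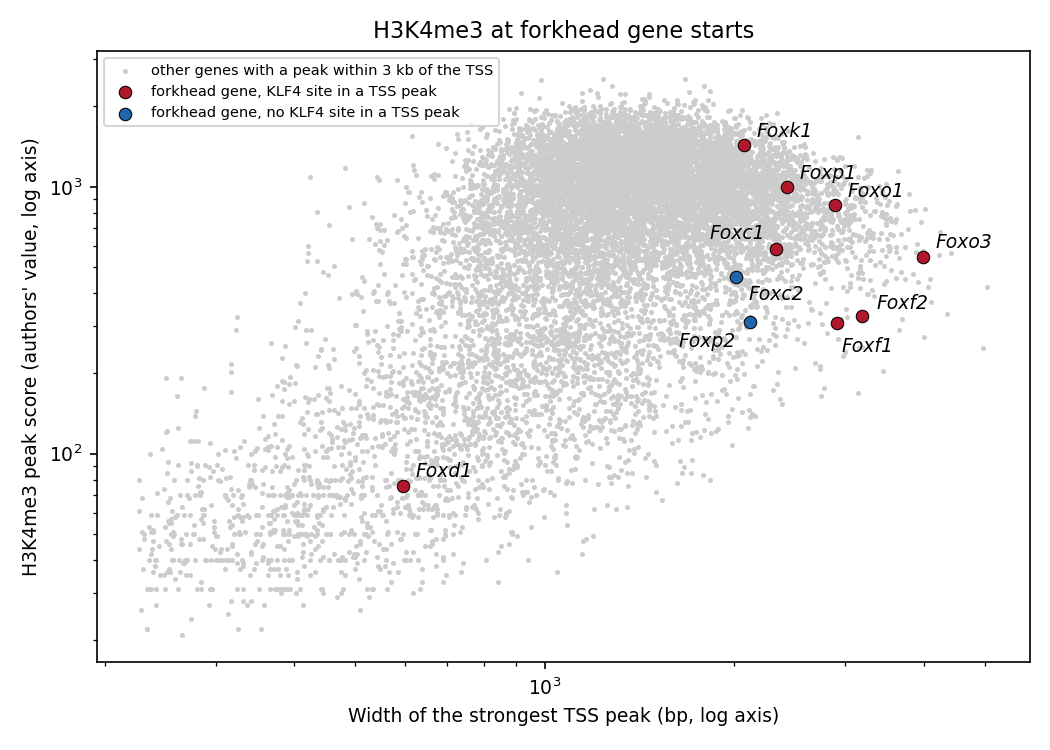
Width in bp against the authors' H3K4me3 peak score, both on log axes, for the strongest peak within 3 kb of a TSS of each gene. Forkhead genes are labelled and other genes are grey. The 9 labelled genes other than Foxd1 lie at 2016 bp or more, with scores from 310 to 1436.

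The FOXC, FOXD and FOXF genes encode factors of embryonic mesenchyme, and 4 of them lie in pairs. Foxf1 and Foxc2 are on chromosome 8, where their TSS peaks (chr8:121810214-121813127 and chr8:121842980-121844995, mm39) were 29.9 kb apart. Foxf2 and Foxc1 are on chromosome 13, with TSS peaks at chr13:31809131-31812318 and chr13:31990554-31992881, 178.2 kb apart. The deposited annotation placed each of these 4 peaks in exon 1 of its gene. In both pairs the FOXF gene had the wider peak (2914 bp at Foxf1 and 3188 bp at Foxf2) and the FOXC gene the higher score.

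Foxf2 had further H3K4me3 peaks 7441 bp upstream of its TSS (score 87) and in its intron 1 (score 77), and Foxc1 had them 5341 bp upstream (score 26) and 14321 bp downstream (score 141). The last lay in intron 9 of Gmds, the neighbouring gene that encodes an enzyme of GDP-fucose synthesis. Foxd1, a marker of stromal progenitors in the developing kidney, had 2 short peaks at its single exon, with scores of 76 (chr13:98490692-98491287) and 45 (chr13:98491618-98491892).

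KLF4 sites overlapped the TSS mark at 4 of these 5 genes, beside 67.8% of all genes with a TSS mark. In the authors' deposited table the site at Foxf2 (chr13:31809126-31810362) was the strongest of them, with a mean log2 CPM of 5.96, and it covered the TSS. Mean log2 CPM is the signal averaged over the 6 KLF4 libraries, and its median over all sites of the authors' deposited table was 5.08. It counts reads over the whole site and is not scaled to width, so a site called stronger can be a wider one. Widths of the 18 sites ran from 255 bp at Foxd1 to 1792 bp at Foxo3. The site at Foxf1 (chr8:121810453-121811209) had 5.30 in the authors' deposited table. At Foxc1 the site (chr13:31989901-31990605, 4.80 in the authors' deposited table) ended 24 bp upstream of the TSS and shared 52 bp with the H3K4me3 peak. The Foxd1 site (chr13:98490701-98490955) was stronger than 4.75% of sites, at 3.75 in the authors' deposited table, and covered the TSS. Foxc2 had no KLF4 site in its mark. The nearest was 6599 bp away (chr8:121851594-121852552, 5.71 in the authors' deposited table), on an H3K4me3 peak annotated to Foxl1, the next forkhead gene of that cluster.

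PLAGL1 was absent from the deposited peaks near these 5 starts. The single PLAGL1 peak annotated to any of them was given to Foxc1 from 123298 bp away (chr13:32113847-32114008, score 21, rank 3041 of 3463). It sat in intron 8 of Gmds, in an RLTR17B_Mm element, an endogenous retroviral long terminal repeat, and overlapped neither H3K4me3 nor KLF4.

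**Figure D2:**
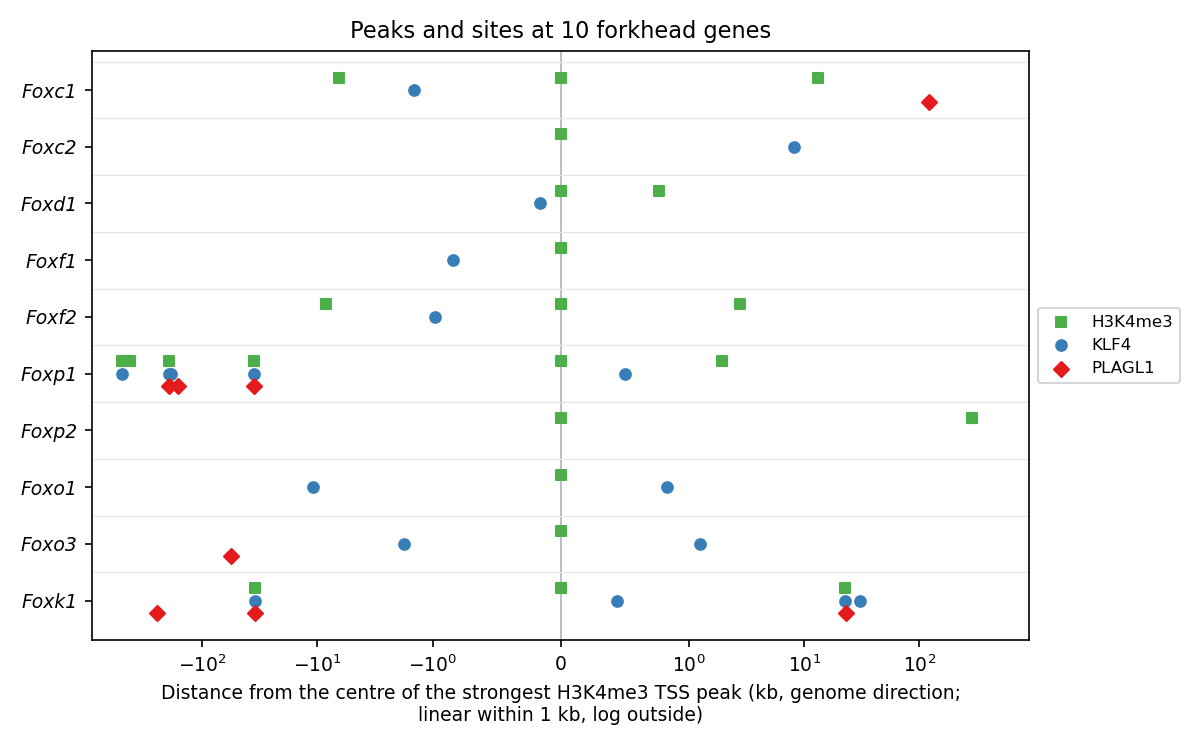
Centres of H3K4me3 peaks (squares), KLF4 sites (circles) and PLAGL1 peaks (diamonds) of each forkhead gene, in kb from the centre of its strongest H3K4me3 TSS peak along the genome, on an axis that is linear within 1 kb and logarithmic outside. PLAGL1 peaks appear at Foxc1, Foxp1, Foxo3 and Foxk1, all over 20 kb from the TSS.

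Foxp1 and Foxp2 encode repressors that also work in neurons, blood cells and bone. Foxp1 had the richest set of regions of the 10 genes, with 7 H3K4me3 peaks, 3 PLAGL1 peaks and 5 KLF4 sites. Of 13082 genes with an H3K4me3 peak, 9 had as many as 7. The deposited distances place 4 starts in the gene, which is read from the minus strand. The first start carried the peak of score 997 (chr6:99496880-99499306) and a flanking one of 208. The most downstream start, 492.7 kb along the gene and inside intron 6 of the long form, carried a peak of 824 (chr6:99003958-99005878). The starts at 85.6 kb and 254.5 kb had no H3K4me3 peak within 3 kb.

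RefSeq holds the 250 bases upstream of 3 of these starts (build GRCm38.p6, minus strand), which were matched to the deposited starts by their equal spacing. They are shown because marked and unmarked starts of 1 gene can be set side by side. Capitals mark the letters CCGCCC and CACCC on either strand, the kind of element that KLF and SP factors bind, and neighbouring matches can run together.
Foxp1 first start, chr6:99520994-99521243: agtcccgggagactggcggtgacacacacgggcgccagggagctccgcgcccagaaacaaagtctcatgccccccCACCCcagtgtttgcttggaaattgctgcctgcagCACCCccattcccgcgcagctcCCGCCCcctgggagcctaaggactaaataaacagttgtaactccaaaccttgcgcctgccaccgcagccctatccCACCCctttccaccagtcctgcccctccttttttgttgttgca
Foxp1 start at 254.5 kb, chr6:99266516-99266765: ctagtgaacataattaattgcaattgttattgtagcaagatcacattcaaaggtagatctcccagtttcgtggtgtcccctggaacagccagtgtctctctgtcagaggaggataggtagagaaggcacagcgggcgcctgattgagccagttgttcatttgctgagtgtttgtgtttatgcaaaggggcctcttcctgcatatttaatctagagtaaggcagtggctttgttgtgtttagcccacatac
Foxp1 start at 492.7 kb, chr6:99028299-99028548: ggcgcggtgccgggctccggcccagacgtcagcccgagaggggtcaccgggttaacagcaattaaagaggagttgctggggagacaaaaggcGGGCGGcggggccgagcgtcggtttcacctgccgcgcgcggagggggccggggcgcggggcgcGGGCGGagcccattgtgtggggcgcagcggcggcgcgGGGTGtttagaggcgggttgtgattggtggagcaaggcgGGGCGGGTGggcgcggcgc

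Both marked starts were richer in GC than the unmarked one. The first start had a GC content of 60.8% with 11 CpG dinucleotides and the start at 492.7 kb had 74.0% with 34, against 45.2% with 3 at the unmarked start at 254.5 kb. The median over 32851 RefSeq upstream windows of 250 bases was 52.4% with 6 CpG. CCGCCC occurred 1 time upstream of the first start, 3 times at 492.7 kb and 0 times at 254.5 kb, and CACCC 3, 2 and 0 times. CCGCCC was present in 32.7% and CACCC in 52.0% of all windows. A match is a description of letters and does not show a bound site.

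KLF4 sites covered both marked starts of Foxp1. The site at the first start (chr6:99497917-99499265) had a mean log2 CPM of 6.01 and the one at 492.7 kb (chr6:99004858-99005705) had 4.94 in the authors' deposited table. At the unmarked start at 254.5 kb there was no site within 3 kb. The start at 85.6 kb, unmarked by H3K4me3, was covered by a site of 290 bp (chr6:99412175-99412464) with a mean log2 CPM of 4.48 in the authors' deposited table, which lies too far from any Foxp1 peak to count among the 18.

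All 3 PLAGL1 peaks of Foxp1 were intronic. The one in intron 1 (chr6:99462307-99462572, score 47) lay 35515 bp from the first start and was wholly inside a short H3K4me3 peak (score 78), and a KLF4 site covered it as well. In intron 2, a PLAGL1 peak of score 50 (chr6:99304780-99305190) shared 129 bp with an H3K4me3 peak of score 39 and 319 bp with a KLF4 site. The highest-scored PLAGL1 peak of the 10 genes, 61 at chr6:99336989-99337127 (rank 640 of 3463), was also in intron 2 and overlapped neither H3K4me3 nor KLF4. Elsewhere in the gene an H3K4me3 peak of score 366 in intron 5 (chr6:99071824-99073516) had neither factor on it.

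**Figure D3:**
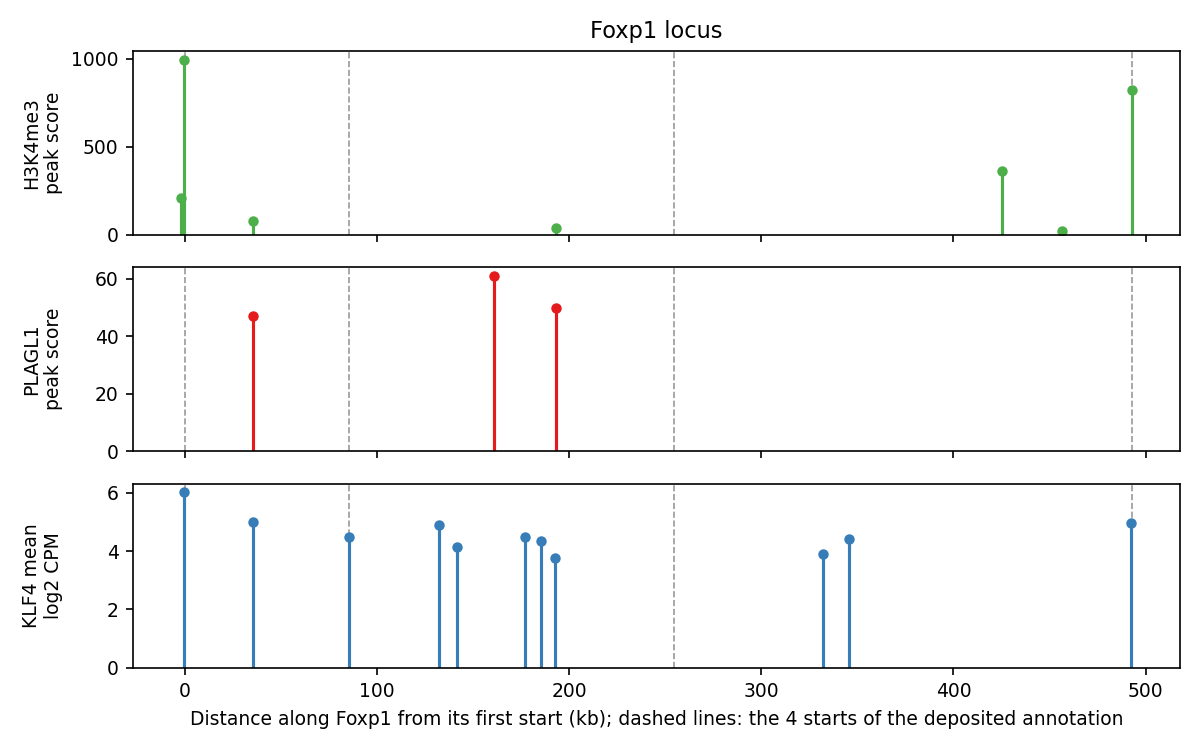
Foxp1 along its direction of transcription, in kb from its first start, with the H3K4me3 and PLAGL1 peak scores and the mean log2 CPM of all 11 KLF4 sites in the interval as stems. The starts at 0 and 492.7 kb (dashed) carry scores of 997 and 824, and the starts at 85.6 and 254.5 kb carry no H3K4me3 peak.

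Foxp2, known for its role in vocal learning and motor circuits, was marked at 2 regions on chromosome 6 and had neither KLF4 within 10 kb nor a PLAGL1 peak. Its upstream promoter peak (chr6:14899834-14901950) scored 311. A second region carried 2 weaker peaks, of 47 (chr6:15185293-15185612) and 80 (chr6:15186021-15187366). Foxp2 and Foxp1 therefore differed in all 3 maps, and Foxp2 was the single gene of the 10 with no KLF4 site under the 10 kb rule.

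Foxo1 and Foxo3 each had 1 H3K4me3 peak, at the TSS, of 2890 bp (chr3:52175100-52177989, score 856) and 3986 bp (chr10:42150084-42154069, score 548). FOXO1 supports the redox balance and differentiation of osteoblasts, and FOXO3 is a stress-responsive factor that preserves stem cells. Foxo3 carried the strongest KLF4 site of the 10 genes. This site (chr10:42152428-42154219) covered the TSS, was 1792 bp wide and had a mean log2 CPM of 7.70, rank 298 of 21130 in the authors' deposited table. A second site in the same mark (chr10:42150050-42150578) had 5.50 in the authors' deposited table.

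At Foxo1 the KLF4 site in the mark (chr3:52177163-52177578) was among the weakest, with 3.87 in the authors' deposited table, and began 1405 bp downstream of the TSS. A stronger one (chr3:52165320-52165892, 5.88 in the authors' deposited table) was 9208 bp from the mark, upstream of the gene. The upstream windows of Foxo3 and Foxo1 (RefSeq, GRCm38.p6) are shown side by side, with the same letters in capitals. Both KLF4 sites of Foxo1 lie outside its window, so the letters there do not bear on them.
Foxo3, minus strand, chr10:42276696-42276945: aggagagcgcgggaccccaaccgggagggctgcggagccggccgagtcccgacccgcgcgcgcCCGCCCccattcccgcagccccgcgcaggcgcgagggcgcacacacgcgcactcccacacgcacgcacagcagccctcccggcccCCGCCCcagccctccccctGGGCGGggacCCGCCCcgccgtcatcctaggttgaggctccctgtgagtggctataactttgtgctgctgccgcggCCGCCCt
Foxo1, plus strand, chr3:52268087-52268336: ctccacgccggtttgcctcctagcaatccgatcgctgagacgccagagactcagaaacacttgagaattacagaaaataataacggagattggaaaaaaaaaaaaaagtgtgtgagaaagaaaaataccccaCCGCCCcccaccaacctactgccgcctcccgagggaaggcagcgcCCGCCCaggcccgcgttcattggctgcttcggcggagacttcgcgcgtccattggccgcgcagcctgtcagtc

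The Foxo3 window had a GC content of 76.4% with 31 CpG and 5 matches to CCGCCC. The Foxo1 window had 56.0% with 20 CpG and 2 matches. CACCC occurred in neither, and neither held CCACACCC, a longer KLF-type string present in 3.20% of all windows, or TGTTTAC, a forkhead-type string present in 3.17%. Over the 8 windows of the 6 genes with a RefSeq entry, the last 2 strings were found 0 times, and CCGCCC was found in 7, all but the unmarked Foxp1 start.

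PLAGL1 was not found at the TSS of either FOXO gene. The 1 PLAGL1 peak of Foxo3 (chr10:42096209-42096341, score 30, rank 2151 of 3463) lay in its intron 2, 56416 bp from the TSS, and overlapped neither H3K4me3 nor KLF4. Foxo1 had none.

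Foxk1 encodes a repressor of autophagy genes that also promotes glycolysis. It had the highest H3K4me3 score of the 10 genes at the TSS (chr5:142386999-142389069, 1436, higher than 92.3% of all peaks), with a KLF4 site of mean log2 CPM 6.07 in the authors' deposited table that began 563 bp downstream of the TSS. Away from the TSS it carried 2 regions where all 3 maps met. At the intergenic CpG-rich region 33868 bp upstream, a PLAGL1 peak (chr5:142353294-142353474, score 50) lay wholly within an H3K4me3 peak of score 704 (chr5:142352674-142354036) and within a KLF4 site (chr5:142352809-142353633, 5.48 in the authors' deposited table). In intron 1, 23707 bp downstream, a PLAGL1 peak of score 22 (chr5:142410900-142411019) shared 104 bp with a KLF4 site (chr5:142410392-142411003, 5.83 in the authors' deposited table) and 16 bp with an H3K4me3 peak of score 36. The third PLAGL1 peak given to Foxk1 (chr5:142143724-142143870, score 40) was 243455 bp away, in a B4A SINE repeat in intron 35 of Sdk1, a cell adhesion gene, and overlapped neither.

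Across the family the PLAGL1 peaks were thus distal. Of the 10 genes, 4 had a PLAGL1 peak at any distance and 0 within 3 kb of a TSS, against 15.7% and 10.1% of all genes with a TSS mark. The nearest was the one in Foxk1 intron 1, and all 8 were beyond 20 kb, as were 29.1% of all PLAGL1 peaks. They split evenly: 4 overlapped both H3K4me3 and KLF4, all at Foxp1 and Foxk1, and 4 overlapped neither. When an overlap had to cover 50% of the shorter region, 2 instead of 4 overlapped H3K4me3, while KLF4 stayed at 4. Among the 1008 PLAGL1 peaks beyond 20 kb in the whole list, 12.2% overlapped both and 55.7% neither. The median score was 43.5 for the 8 peaks and 40.0 for the list.

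KLF4 sites lay within 10 kb of a peak of all genes but Foxp2. A KLF4 site overlapped a TSS mark at 8 of the 10 genes, Foxc2 and Foxp2 being the exceptions, and at 67.8% of all marked genes. Of the 25 H3K4me3 peaks 13 overlapped a KLF4 site (52.0%, against 60.6% of the whole list). Among the 10 H3K4me3 peaks beyond 3 kb of a TSS, 4 overlapped KLF4 and the same 4 overlapped PLAGL1, while in the whole list 44.3% of such peaks overlapped KLF4, 9.27% PLAGL1 and 8.16% both. Peaks of 1 gene share their locus and library and are not independent, so these shares are descriptions.

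The series set KLF4 binding in control cells against cells that lack Plagl1. At an adjusted p under 0.05, 0 of the 18 forkhead sites were called in the authors' deposited table (edgeR with Benjamini-Hochberg adjustment), where 0.0473% of all sites were. At an unadjusted p under 0.05 there was 1 of 18, against 6.46% of the 21130 in the authors' deposited table. The table holds no values per library and leaves the direction of the ratio unnamed, so a sign cannot be turned into higher or lower in the deficient cells.

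The site with p under 0.05 was in intron 2 of Foxp1 (chr6:99312258-99312643), 7068 bp from the PLAGL1 peak of score 50. Its log2 fold change was 0.67 with p = 0.011 and an adjusted p of 0.67 by edgeR in the authors' deposited table. The approximate 95% interval, computed here from the deposited F and p since the table has none, ran from 0.16 to 1.17, and the ranges in brackets below were computed in the same way. The site overlapped no peak of either other list. Its mean log2 CPM of 4.35 was below the median of 5.08 in the authors' deposited table.

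Where KLF4 met PLAGL1, the log2 fold changes had both signs. At the Foxp1 intron 1 site the value was 0.15 (-0.24 to 0.55) and at the overlapped intron 2 site -0.39 (-1.09 to 0.32) in the authors' deposited table. At Foxk1 it was 0.20 (-0.11 to 0.52) at the CpG-rich upstream region and -0.10 (-0.37 to 0.18) in intron 1, per the authors' deposited table. Each of these 4 intervals includes 0, and the weakest site has the widest interval.

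The sites at the starts were not called either. The strong Foxo3 site had 0.01 in the authors' deposited table, and its computed interval of -0.16 to 0.17 was the narrowest of the 18. Its second site had 0.24 (-0.08 to 0.56) in the authors' deposited table. The Foxk1 TSS site had 0.18 (-0.08 to 0.44), and the Foxp1 starts had -0.10 (-0.36 to 0.17) and -0.28 (-0.67 to 0.11) in the authors' deposited table. For the mesenchymal genes the fold changes of the authors' deposited table, with computed intervals, were -0.29 (-0.64 to 0.07) at Foxf1, -0.05 (-0.32 to 0.22) at Foxf2, -0.02 (-0.43 to 0.40) at Foxc1 and -0.10 (-0.76 to 0.57) at Foxd1. The site between Foxc2 and Foxl1 had -0.15 (-0.45 to 0.15) in the authors' deposited table. The sites of Foxo1 had -0.09 (-0.36 to 0.17) for the distant one and 0.16 (-0.50 to 0.83) for the weak one in the mark, per the authors' deposited table. The last site, 6789 bp beyond the Foxk1 intron 1 peak, had -0.28 (-0.58 to 0.01) with p = 0.060 by edgeR in the authors' deposited table.

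**Figure D4:**
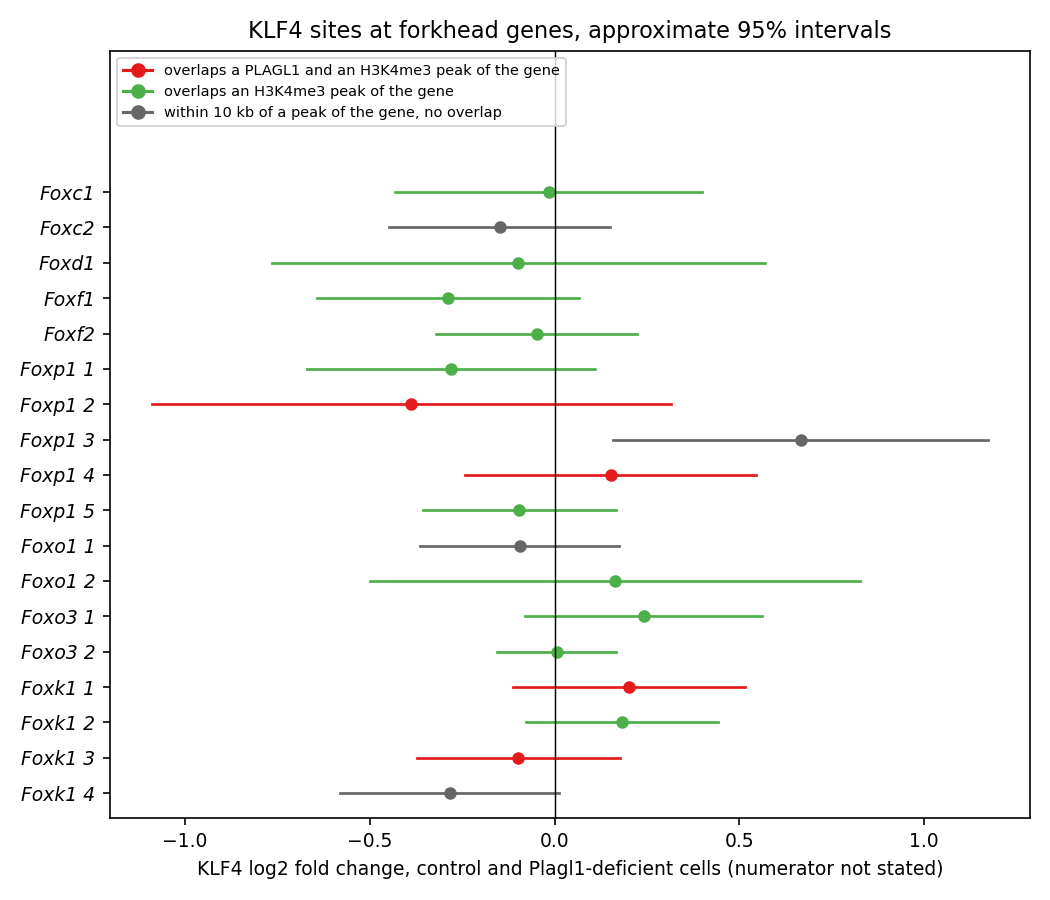
KLF4 log2 fold change between control and Plagl1-deficient cells at the 18 sites, numbered by coordinate within a gene, from the authors' deposited table. Points are the deposited values and lines the approximate 95% intervals, coloured by overlap with PLAGL1 and H3K4me3 peaks. The intervals of 17 sites include 0, and the exception is Foxp1 3.

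In all, 11 of the 18 sites had a negative and 7 a positive value, with a median of -0.07, against 49.7% negative and a median of 0.00 in the authors' deposited table as a whole. The absolute value was below 0.3 at 16 of the 18 sites and at 83.6% of the 21130 in the authors' deposited table. The approximate intervals reached from 0.16 to 0.70 on either side of the value, with a median of 0.32. A p that misses the threshold therefore does not show that KLF4 binding was alike in the groups.

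Of 33 further members of the forkhead family 14 had an H3K4me3 peak within 3 kb of the TSS, beside 51.3% of protein-coding genes. The highest scores were at Foxk2 (1164), Foxp4 (1158), Foxn2 (1133), Foxj3 (1098) and Foxj2 (1005), followed by Foxo4 (681), Foxd2 (521), Foxj1 (513), Foxq1 (244), Foxs1 (162), Foxl1 (138), Foxo6 (137), Foxb2 (48) and Foxl2 (27). The strongest TSS peak spanned at least 2000 bp at Foxp4 (2499 bp), Foxq1 (2257 bp), which sits beside Foxf2, and Foxs1 (2027 bp). It was narrower at the rest of the 14, and 13.9% of all genes with a TSS peak reached that width. The other 19 of the 33 genes had no H3K4me3 peak within 3 kb. A KLF4 site overlapped the TSS mark of 9 of the 14 (67.8% over all marked genes), and the Foxp4 site had -0.33 with p = 0.024 (adjusted p = 0.72, edgeR) in the authors' deposited table. PLAGL1 was at 0 of the 14 marked starts, against 10.1% of all marked genes, and 5 of the 33 genes had a more distant peak (Foxe1 59, Foxs1 57, Foxj2 47, Foxn4 29 and Foxl1 28). Of the 14 marked genes 3 had a PLAGL1 peak at any distance, beside 15.7% of all marked genes.

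Some genes that control FOXO activity carried PLAGL1 at their starts. Of 13 regulators 4 had a PLAGL1 peak within 3 kb of the TSS. Counted over the 12 with a TSS mark they were 3, beside 10.1% of all marked genes. The 4 were Sgk1 (score 92), a kinase induced by glucocorticoids that phosphorylates FOXO, Irs2 (76) and Irs1 (21), the insulin receptor substrates, and Ywhaz (21), a 14-3-3 protein. The scores of 21 lie just above the lowest PLAGL1 score, 20, and below the list median of 40.0. H3K4me3 marked 12 of the 13, with the highest scores at Akt2 (1774), Insr (1726) and Ep300 (1474). Irs2 had no TSS peak under its own name. KLF4 overlapped the mark at 11 of the 12, against 67.8% of all marked genes. Of the 16 KLF4 sites on these starts 2 had p under 0.05 in the authors' deposited table, where 6.46% of sites did, at Insr (0.86, p = 0.0097, adjusted p = 0.67, edgeR) and Akt1 (-0.22, p = 0.043, adjusted p = 0.76, edgeR).

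Of 14 FOXO target genes 2 had PLAGL1 at the TSS, Gadd45a (31) and Bcl6 (21), while 13 were marked, against 51.3% of protein-coding genes, led by Pink1 (1415), Ccng2 (1349) and Sod2 (1333). Of the 13 marked targets 1 had PLAGL1 at the TSS, near the 10.1% of all marked genes. KLF4 overlapped the mark at 10 of the 13 (67.8% over all marked genes). At p under 0.05 there was 1 of 13 KLF4 sites, near the 6.46% of all sites, at Bcl2l11 (0.33, p = 0.020, adjusted p = 0.72, edgeR) in the authors' deposited table. In neither list was a site called at an adjusted p under 0.05 in the authors' deposited table. Dexamethasone, a glucocorticoid, was in the medium of all libraries. No library without it was compared, so its part in these values was not tested.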

How the data were processed

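Peaks and consensus sites were used as deposited, on the build mm39 per the submitters' processing notes, which name, without roles, HOMER 4.11.1 and edgeR 4.2.0 beside MACS3 3.0.2 and Bowtie2 2.5.4. The PLAGL1 list is HA against IgG per the file name. Each peak carries the authors' score, a whole number from 20, with the authors' gene name and distance to the TSS, which go by the nearest TSS and so can name a gene inside another. For KLF4 the authors deposited, per site, p-values (raw and adjusted), the F score of the test, the log2 fold change and the mean log2 CPM. No counts per library were used, so depth is unknown and nothing was refitted. P-values rest on the spread between libraries, which may be technical, but not on the spread at each site alone. The degrees of freedom recovered from F and p (median 87.6) are more than 6 libraries can give at a single site.

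Overlaps of at least 1 bp, KLF4 sites within 10 kb, and shares were obtained in Python 3.11.15 (scipy 1.17.1, numpy 2.4.6, pandas 2.3.3, matplotlib 3.10.9) by code checked on simulated data. The approximate standard error came from the size of the log2 fold change over the root of F, and F and p together gave the degrees of freedom (median 87.6). Promoter windows are RefSeq's (GRCm38.p6) and matched 6 of the 10 genes. The genes, lists and rules for naming were chosen with earlier results of these data known. All 10 genes were named, as were other forkhead genes with a TSS mark, FOXO pathway genes with PLAGL1 at the TSS or the 3 highest H3K4me3 scores, and KLF4 sites with p under 0.05, on a PLAGL1 peak or strongest at a gene; the remaining KLF4 sites and the distant PLAGL1 peaks of other forkhead genes were named after their values were seen. Some genes of the lists are not reported here and are left out of the counts. Treatment labels give each KLF4 library another vector name (Klf4, Klf5 and so on to Klf9), but all titles say KLF4, and groups follow the titles.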

Additional observations from a re-analysis of the deposited data

How the results depend on the processing

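No paired analysis was possible because the deposited KLF4 table holds no values per library, and for the same reason no replicate could be left out. Counting peaks with a score at or above the median of their list left 3 of the 10 genes with a TSS mark and 2 with PLAGL1. Within 3 kb of the TSS 0 genes had PLAGL1. When an overlap had to cover 50% of the shorter region, 2 of the 8 PLAGL1 peaks overlapped H3K4me3 instead of 4. KLF4 sites numbered 37 within 50 kb of a peak, of which 3 had an unadjusted p under 0.05, near the 6.46% of all sites. With overlap alone or within 3 kb, 0 sites had one. Each shift came with a wider or narrower rule, and what lay behind it was not tested. The count of sites called at an adjusted p under 0.05 stayed 0 when adjusted over autosomal sites and at a threshold of 0.1. The median log2 fold change ranged from -0.09 to 0.01 over its alternatives and was 0.01 within 50 kb.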

Other observations

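Repeats of the same kinds recurred among PLAGL1 peaks of the forkhead family. The peak given to Foxc1 and the one given to Foxe1 both lay in RLTR17B_Mm long terminal repeats, which held 97 of the 3463 PLAGL1 peaks. Of these 97 peaks 42.3% overlapped a KLF4 site, the one near Foxe1 (chr4:46354805-46354964) among them, and 0 overlapped an H3K4me3 peak. The peaks given to Foxk1 in Sdk1 and to Foxn4 both lay in B4A SINE repeats, which held 11 PLAGL1 peaks, with 0 on KLF4 sites and 0 on H3K4me3 peaks. The sources used here do not say how reads with several matches were treated.

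CpG-rich regions away from a start formed another kind. The Foxk1 region 33868 bp upstream and a region at -8881 bp from the Foxj2 TSS (chr6:122788120-122788405, score 47) were both annotated as CpG islands and carried PLAGL1, KLF4 and H3K4me3 together. Of the 152 PLAGL1 peaks with that annotation, counted at any distance from a TSS, 88.2% overlapped KLF4 and 92.8% H3K4me3. These shares are not those of distal CpG peaks alone. Among all PLAGL1 peaks beyond 20 kb, of any annotation, 41.7% overlapped KLF4 and 14.9% H3K4me3.

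Beyond 10 kb, 2 further KLF4 sites near Foxk1 peaks had an unadjusted p under 0.05 in the authors' deposited table. With them, 3 of the 37 sites within 50 kb had such a p, near the 6.46% of all sites. The site 16126 bp away (chr5:142427145-142427678) had a log2 fold change of -0.24 (p = 0.038, adjusted p = 0.75, edgeR) and the site 46099 bp away (chr5:142457118-142457430) had 0.42 (p = 0.016, adjusted p = 0.70, edgeR) in the authors' deposited table.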
